A study of Sus scrofa with 24 samples.

Results

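The genes described here are PRG4 and TNMD, with 7 genes of the fibroblast matrix, COL1A1, COL1A2, COL3A1, DCN, LUM, OGN and THBS2. They are 9 of the 38882 genes counted in the hippocampus of 24 piglets. PRG4 and TNMD were chosen from the readout, because they stood near the top of the list of genes that differed with diet while having few reads. The 7 matrix genes were chosen by name as genes that fibroblasts transcribe, to see whether they were high in the same piglets. Levels are given as CPM, the reads of a gene in a library scaled to 1000000 reads. All 9 genes reached 1 CPM in at least 3 libraries, as did 16326 genes in all, and PRG4 met this only through 3 libraries of the HF diet.

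The piglets were full-term offspring of PIC Camborough dams and PIC 359 sires, and all were killed at 14 days of age. They were small for gestational age (SGA) or appropriate for gestational age (AGA) at birth, as judged by birth weight, and were fed a control formula (CON) or a hydrolyzed fat formula (HF), in which part of the fat was given as free fatty acids and monoacylglycerol. Each of the 4 combinations of size and diet had 6 piglets. Every SGA piglet had a sex-matched AGA littermate on the same diet, so the 24 libraries came from 12 litters, 6 on each diet, and diet never differed within a litter. SGA birth arose naturally, and the animals carried no introduced allele. Litters 1 to 6 formed cohort 1 and litters 7 to 12 cohort 2, as the labels give them. Each library came from 1 piglet and held between 6017336 and 9284355 reads on listed genes. At these sizes, before TMM scaling, 3 reads are worth 0.323 to 0.499 CPM. The library SGA HF replicate 4 stood apart in pituitary hormone genes, which summed to 384 CPM there and to 44.1 CPM in the next library, with 305 CPM of growth hormone (GH1), and the diet comparison was also made without its litter.

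Fibroblasts in the meninges and around the larger vessels of the brain make a matrix of type I and type III collagen, in which small leucine-rich proteoglycans bind the collagen fibrils. Brain tissue inside this covering has little fibrillar collagen. PRG4 encodes lubricin, the glycoprotein that lubricates joint surfaces, and TNMD encodes tenomodulin, a membrane glycoprotein of tendon and ligament cells. Whether the meninges were stripped from the hippocampi was not given in the sources used here. In bulk tissue, fewer cells of a type and less RNA per cell cannot be told apart.

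The fibroblast matrix genes were read in every library, and PRG4 and TNMD were near the limit of detection. Levels of different genes were set side by side as CPM per kilobase of exon, given as mean ± SD over 24 libraries. Such levels depend on the annotated exon length, which was 954 bases for TNMD and 3633 for COL1A1. RNA quality was not taken into account, so the order of the genes is approximate. OGN was highest (22.5 ± 3.87), followed by LUM (10.7 ± 1.78), DCN (10.17 ± 3.31) and COL3A1 (9.60 ± 3.19). Lower levels were found for COL1A2 (4.47 ± 1.54), COL1A1 (2.27 ± 0.691), TNMD (1.16 ± 1.52) and THBS2 (1.11 ± 0.371). PRG4 was lowest (0.127 ± 0.256). OGN was above LUM in 24 of 24 libraries, and COL3A1 was above COL1A2 in 24 of 24. LUM, DCN and COL3A1 overlapped within 1 SD of each other, and so did TNMD and THBS2, where TNMD was the higher in 7 of 24 libraries.

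Coordinates are those of the deposited files on Sscrofa10.2. PRG4 (gene 100518683, chr9:139907666-139933143, plus strand) had 4744 exon bases in 19 intervals, of which 50 overlap TPR on the opposite strand, and reads were counted by strand. TNMD (gene 100048961, chrX:90109157-90132534, plus strand) had 954 exon bases in 7 intervals, none shared with another gene. COL1A2 (chr9:81357192-81393118) lies on the same chromosome as PRG4, and COL3A1 is at chr15:104067018-104105776. COL1A1 is on an unplaced scaffold at positions 4257 to 21726, where 3 other gene entries share 76 to 99 of its 3633 exon bases and had at most 4 reads in all. DCN (chr5:96109666-96144030) and LUM (chr5:96175872-96183382) are neighbours 31842 bases apart, with KERA next to LUM. OGN is at chr3:43250528-43259180 and THBS2 at chr1:1590783-1617082 on the minus strand.

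PRG4 had 107 reads over the 24 libraries and no read in 12 of them. In AGA CON piglets its level ranged from 0 to 0.601 CPM with a median of 0.0579, and in SGA CON piglets from 0 to 0.821 with a median of 0. In AGA HF piglets it ranged from 0 to 4.19 CPM with a median of 0. In SGA HF piglets it ranged from 0.129 to 2.77 CPM with a median of 0.321. The high values came from 3 HF piglets of 3 litters. AGA HF replicate 4 had 31 reads (4.19 CPM), AGA HF replicate 6 had 30 (3.92 CPM) and SGA HF replicate 2 had 20 (2.77 CPM). Together these 3 libraries held 81 of the 107 PRG4 reads (75.7%), while they held 11.99% of all reads. Their littermates, SGA HF replicate 4, SGA HF replicate 6 and AGA HF replicate 2, had 5, 2 and 0 PRG4 reads. The highest CON value, 5 reads in SGA CON replicate 6, had as many reads as SGA HF replicate 4, the HF library of rank 4.

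TNMD had 193 reads and was read in 22 of 24 libraries. Its level ranged from 0.133 to 1.80 CPM in AGA CON piglets (median 0.377) and from 0 to 2.46 CPM in SGA CON piglets (median 0.140). It ranged from 0.129 to 4.06 CPM in AGA HF piglets (median 0.694) and from 0.351 to 5.54 CPM in SGA HF piglets (median 1.13). The same 3 piglets were highest, with 5.54 CPM in SGA HF replicate 2, 4.06 in AGA HF replicate 4 and 3.27 in AGA HF replicate 6. They held 95 of the 193 TNMD reads (49.2%). The next 3 libraries in order were SGA CON replicate 6 (2.46 CPM), SGA HF replicate 1 (2.31 CPM) and AGA CON replicate 2 (1.80 CPM), so the diets overlapped. The 2 CON libraries with the most PRG4 reads were also the 2 CON libraries highest in TNMD.

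**Figure D1:**
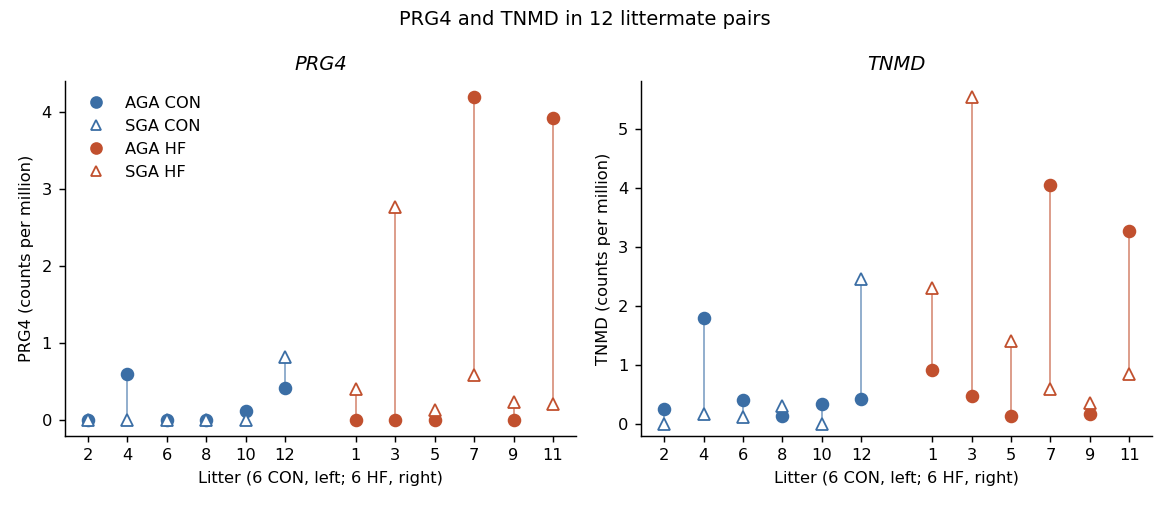
PRG4 (left) and TNMD (right) in CPM for each piglet, by litter, with a line joining AGA (filled circles) and SGA (open triangles) littermates, CON litters in blue and HF litters in red. Litters 3, 7 and 11 each have 1 high and 1 low littermate for both genes, and in litters 4 and 12 on the CON diet the same littermate is the higher for both genes.

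Summed, the 3 fibrillar collagens were highest in the same 3 piglets, with 131, 126 and 109 CPM in AGA HF replicate 4, AGA HF replicate 6 and SGA HF replicate 2, and a median of 76.9 over 24 libraries. COL1A2, which encodes the alpha 2 chain of type I collagen, had 42.9 CPM in AGA HF replicate 4, 37.8 in AGA HF replicate 6 and 33.7 in SGA HF replicate 2, which were ranks 1, 2 and 3 of 24. Its medians were 20.5 CPM in AGA CON (15.0 to 29.3), 21.4 in AGA HF (13.4 to 42.9), 20.4 in SGA CON (12.2 to 26.8) and 25.5 in SGA HF (13.9 to 33.7). The next level of COL1A2 was in AGA CON replicate 2 (29.3 CPM), so the diets overlapped here too. COL3A1, the only chain of type III collagen, had 77.4 CPM in AGA HF replicate 6 and 75.6 in AGA HF replicate 4, then 66.2 in SGA CON replicate 6 and 65.0 in SGA HF replicate 2. COL3A1 medians were 36.4 CPM in AGA CON (29.5 to 51.9), 48.4 in AGA HF (28.3 to 77.4), 47.5 in SGA CON (24.6 to 66.2) and 44.9 in SGA HF (30.0 to 65.0). COL1A1, the alpha 1 chain of type I collagen, had its highest level in AGA HF replicate 4 (12.98 CPM), the next in SGA CON replicate 4 (11.96 CPM), and ranged down to 3.09 CPM in SGA HF replicate 3. All 4 groups overlapped for each of the 3 collagens.

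Summed, the small leucine-rich proteoglycans DCN, LUM and OGN put AGA HF replicate 4, AGA HF replicate 6 and SGA HF replicate 2 at ranks 3, 2 and 4, while the single genes differed. DCN encodes decorin, which binds collagen fibrils and growth factors. DCN was highest in AGA HF replicate 6 (39.1 CPM) and of rank 3 in SGA HF replicate 2 (28.8 CPM), but of rank 9 in AGA HF replicate 4 (21.6 CPM). Its medians were 15.2 CPM in AGA CON (10.1 to 18.1), 20.4 in AGA HF (15.0 to 39.1), 20.6 in SGA CON (13.3 to 30.9) and 21.2 in SGA HF (15.7 to 28.8). LUM, which encodes lumican, was highest in SGA CON replicate 6 (27.9 CPM), and the 3 piglets with most PRG4 reads were at ranks 8, 5 and 10. LUM and OGN varied least of the 9 genes, with coefficients of variation of 16.7% and 17.2% over 24 libraries, against 30.5% for COL1A1, 34.4% for COL1A2, 131% for TNMD and 202% for PRG4. OGN encodes osteoglycin, in which the 3 piglets were at ranks 2, 8 and 5, and ranged from 45.4 CPM in SGA CON replicate 5 to 79.8 in AGA CON replicate 2, a library that also had the lowest DCN (10.1 CPM) and the highest THBS2 (13.4 CPM). THBS2 encodes thrombospondin 2, a matricellular protein that takes part in fibril assembly and restrains vessel growth. The 3 piglets were at ranks 3 to 5 for THBS2, with 12.9, 12.9 and 12.3 CPM.

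**Figure D2:**
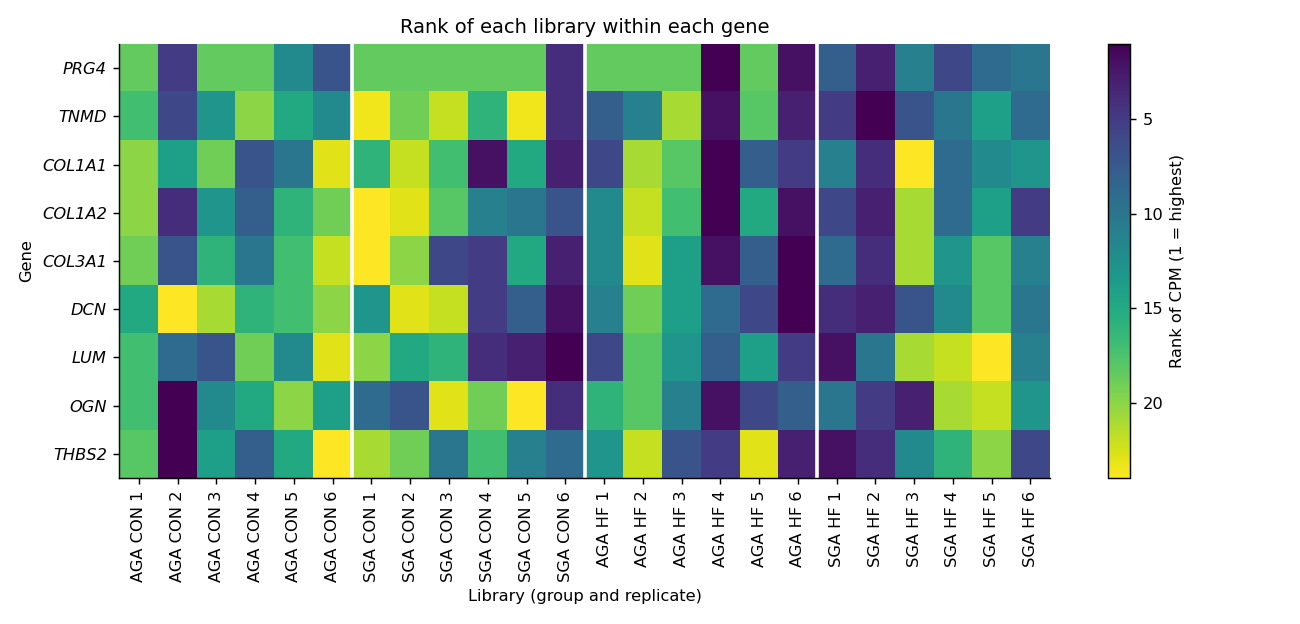
Rank of each library (columns, by group and replicate) among 24 for each of the 9 genes (rows), by CPM, where 1 is the highest, the darkest colour is the highest rank and ties share their mean rank. AGA HF 4, AGA HF 6 and SGA HF 2 are dark for PRG4, TNMD and the collagens, and LUM does not follow them.

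PRG4 and TNMD varied together from piglet to piglet. Spearman's rho of their log2 CPM (prior count 2) was 0.82 over 24 libraries, and TNMD was at rank 2 in closeness to PRG4 among the 16325 other genes tested. The 24 points share litters in pairs, the 2 genes share each library's scaling, and both were chosen for leading the same diet comparison in these libraries, so rho and its rank are given as a description. Over 12 litter means rho was 0.91, within cohorts 1 and 2 it was 0.83 and 0.94, and within the HF and CON diets it was 0.74 and 0.80. Without the 3 libraries highest in PRG4 it was 0.73. Several of these values rest on few PRG4 reads. In CON piglets PRG4 had 13 reads in all and none in 8 of 12 libraries, and its median in cohort 1 was 0 CPM. The value without the 3 libraries kept all 12 libraries that had no PRG4 read. Littermates differed in PRG4 in 9 litters, and in all 9 the littermate with more PRG4 also had more TNMD, which was so for 0.221% of the genes tested. In litters 1, 5, 9 and 10, however, 1 littermate had 0 PRG4 reads and the other 3, 1, 2 and 1, too few to tell from 0. In litter 12 they had 3 and 5.

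Over the 24 libraries COL1A2 was the closest of the 7 matrix genes to both. In the other matrix lists PRELP was closer to both (0.74 with PRG4, 0.75 with TNMD) and COL14A1 closer to TNMD (0.66). The rho of COL1A2 was 0.67 with PRG4 (rank 37 of 16325) and 0.64 with TNMD (rank 35). Without the 3 libraries it was 0.48 and 0.46. Over 12 litter means COL1A2 was not the closest. Its rho with PRG4 was then 0.51, level with DCN, against 0.52 for OGN, and the others were lower. With TNMD it was 0.50, against 0.64 for DCN and 0.55 for both COL3A1 and THBS2, and the others were lower. The littermate with more PRG4 had more OGN in 8 of 9 litters, and more COL1A2 and more THBS2 in 7 of 9. Of all genes tested, 2.24% reached 8 or more. These counts include the litters named above in which the PRG4 reads were too few to tell from 0. COL1A1, COL3A1, DCN and LUM were at 6 of 9, where the median of all genes was 5. Over 24 libraries, rho with PRG4 was 0.49 for THBS2, 0.47 for COL3A1 and 0.45 for OGN. It was 0.41 for COL1A1, 0.36 for DCN and 0.16 for LUM. Without the 3 libraries these were 0.26, 0.18, 0.24, 0.14, 0.12 and -0.03. Pearson's r of PRG4 was 0.86 with TNMD, 0.74 with COL1A2 and 0.63 with COL3A1. The collagens were closer to each other than to PRG4, with a rho of 0.83 for COL1A2 and COL3A1, 0.80 for COL1A1 and COL3A1 and 0.75 for COL1A1 and COL1A2. Without the 3 libraries these were 0.75, 0.72 and 0.66. THBS2 went with COL1A2 (0.77) and LUM with COL3A1 (0.64). OGN stood apart from the collagens, with a rho of 0.13 to 0.29, and its rho with TNMD (0.53) was next to that of COL1A2.

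**Figure D3:**
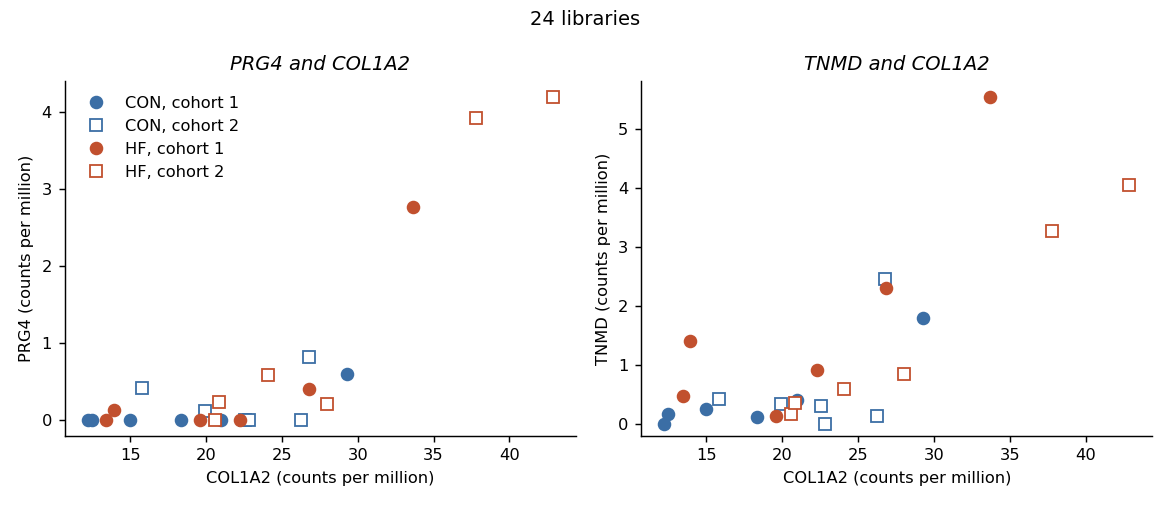
PRG4 (left) and TNMD (right) against COL1A2, all in CPM, for 24 libraries, coloured by diet, with filled circles for cohort 1 and open squares for cohort 2. The 3 libraries with over 30 CPM of COL1A2 have 2.77 to 4.19 CPM of PRG4 and 3.27 to 5.54 CPM of TNMD, and below that level PRG4 is at most 0.821 CPM.

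Among genes with a symbol and outside the 9, those most like PRG4 over the 24 libraries were C3H16orf89 (rho 0.83), DSP (0.82), SLC22A8 (0.82), KRT8 (0.81) and SFRP5 (0.80). DSP encodes desmoplakin of the desmosome, SLC22A8 an organic anion transporter, KRT8 a keratin of simple epithelia and SFRP5 a secreted Wnt inhibitor. Those most like TNMD were CRABP2 (0.84), a retinoic acid binding protein, SLC22A8 (0.82), LCN2 (0.76), a secreted lipocalin, PRELP (0.75), a leucine-rich proteoglycan, and KRT19 (0.74), another keratin. Without the 3 libraries their rho lay between 0.70 and 0.75 for PRG4 and between 0.61 and 0.76 for TNMD. COL1A1 had other neighbours with a symbol, PCOLCE (0.87), which enhances procollagen cleavage, then MFAP2 (0.80), ZNF232 (0.78), SCRG1 (0.76) and COL6A2 (0.75), at ranks 2, 4, 6, 7 and 9. Ranks 3 and 8 were COL3A1 and COL1A2, and ranks 1 and 5 were entries with no gene symbol. SLC22A8 was the only gene among the 5 closest with a symbol to more than 1 of these 3 genes.

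The label of meningeal fibroblasts was checked against 36 identity genes, of which 32 were matched and 24 were expressed past the filter. FOXC1, a transcription factor needed for the meninges, had 11.9 CPM (8.58 to 16.6), SLC22A6 27.8 CPM and SLC13A4 8.45 CPM. TWIST2, SLC6A20, SLC13A3, ITIH2, ADAMTSL3, LEPR and WNT6 were under 0.5 CPM on average, and none was at 0. The most abundant gene of the list was NNAT (2282 CPM), which neurons also transcribe. Summed with NNAT, the list put AGA HF replicate 4, AGA HF replicate 6 and SGA HF replicate 2 at ranks 20, 16 and 8 of 24. Summed without NNAT, the list had between 303 and 493 CPM per library, and these libraries were at ranks 3, 2 and 1. PDGFRA, at 89.9 CPM on average, was then the most abundant gene of the sum, and ranks without it were not taken. Its 24 expressed genes had a median rho of 0.46 with TNMD, 0.46 with PRG4 and 0.44 with COL1A2, where the median of all genes was between 0.00 and 0.01. Of the 24, 9 were among the 163 genes (1% of those tested) closest to TNMD, 8 among those closest to PRG4 and 7 among those closest to COL1A2. CRABP2, SLC22A8, IGF2, SLC13A4, BMP6 and FOXC2 had a rho with TNMD of 0.84, 0.82, 0.69, 0.63, 0.60 and 0.61. NNAT (-0.02), WNT5A (-0.03), ALDH1A1 (-0.12) and IGFBP4 (-0.13) did not follow TNMD. The reads do not tell which cells they came from.

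PRG4 and TNMD are better known from joints and tendons, and markers of those tissues were compared with them. Of 21 tendon and joint markers, 19 were matched and 15 expressed, and the median rho was 0.10 with TNMD and 0.17 with PRG4, with none among the 163 genes closest to either. With COL1A2 it was 0.18, with 1 gene, ACAN, among the closest 163. KERA, a proteoglycan next to LUM in the genome, had 2 reads in all libraries together. COL2A1, the collagen of cartilage, had 0.216 CPM, CLEC3A 0.0455 CPM and MYOC 0.133 CPM. DKK3 (385 CPM) was the most abundant of the list. Of 10 bone markers, IBSP, PHEX and MEPE were under 0.5 CPM, SPP1 was most abundant (46.0 CPM), and the median rho with TNMD was 0.04. Of 10 skeletal muscle markers 3 were expressed (median rho 0.19), led by ACTA1 (14.2 CPM), PAX7 was at 0, and MYOD1 and MYOG were under 0.5 CPM.

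Lists of markers of other cell types of the tissue had lower medians with TNMD than the meningeal list, which was not so for every list with COL1A2. The 9 macrophage and microglia markers, led by C1QA (48.8 CPM), had a median rho of 0.21 with TNMD, 0.43 with PRG4 and 0.48 with COL1A2, a median near that of the meningeal list with PRG4 and above it with COL1A2. Of these 9, none was among the 163 genes closest to TNMD or PRG4, and 2, P2RY12 (0.57) and C1QA (0.56), were among those closest to COL1A2. The 8 oligodendrocyte markers, led by MBP (6589 CPM), had medians of -0.03 with TNMD, 0.28 with PRG4 and 0.18 with COL1A2. The 7 astrocyte markers, led by GFAP (8225 CPM), had 0.15, 0.18 and 0.24 in the same order. The medians of these 3 lists were higher with PRG4 and COL1A2 than with TNMD, a difference that was not tested.

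For cells of the vessels and ventricles, blood and pituitary, no median passed 0.31. The medians with TNMD, PRG4 and COL1A2 were 0.18, 0.16 and 0.23 for 13 pericyte and smooth muscle markers, led by TAGLN (57.6 CPM), which was the only gene of these lists among the 163 closest to TNMD (0.53). The medians were 0.05, 0.05 and 0.07 for 12 endothelial markers, led by EGFL7 (159 CPM), and 0.01, 0.14 and 0.08 for 6 expressed choroid plexus markers, led by ENPP2 (264 CPM). The choroid plexus gene SOSTDC1, the ependymal gene PIFO and the pituitary genes TSHB, FSHB and POU1F1 were at 0. The medians were 0.07, 0.24 and 0.16 for 4 ependymal markers, led by FOXJ1 (65.0 CPM), 0.31, 0.21 and 0.15 for 3 erythroid markers, led by HBB (256 CPM), and 0.23, 0.06 and 0.09 for 3 pituitary hormone genes, led by POMC (28.1 CPM). The 10 hippocampal neuron markers, led by CAMK2A (3477 CPM), had medians of -0.26, -0.25 and -0.21, below 0 with all 3 genes.

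The 3 piglets highest in PRG4 also stood high or low in other cell types, and not alike in all of them. Hippocampal neuron markers summed to 6515 CPM in AGA HF replicate 4 and 6922 in AGA HF replicate 6, which were ranks 23 and 22 of 24, and to 8566 in SGA HF replicate 2, at rank 15. The lowest was 5910 CPM in AGA CON replicate 2, the highest 9770 and the median 8786. Without CAMK2A the ranks of the 3 piglets in the same order were 23, 22 and 19. AGA HF replicate 4 was at rank 2 for the summed endothelial (536 CPM, median 445), astrocyte (12260 CPM, median 9298), oligodendrocyte (25026 CPM, median 18908) and macrophage and microglia markers (211 CPM, median 139), and at rank 3 for pericyte (345 CPM, median 260) and ependymal markers (142 CPM, median 120.02). Without the most abundant gene of each list its ranks were 2, 4, 3, 2, 3 and 1, so it stayed high in these lists, but its rank for bone markers went from 2 to 8. AGA HF replicate 6 was at rank 6 for both oligodendrocyte and macrophage markers, rank 2 for erythroid and rank 19 for endothelial markers, and without the most abundant gene at ranks 1, 7, 3 and 21. SGA HF replicate 2 was lowest of 24 for oligodendrocyte markers (12005 CPM) with or without MBP, and its rank without the most abundant gene went from 16 to 9 for astrocyte and from 16 to 14 for macrophage markers. Choroid plexus ranks rested on ENPP2, a gene that oligodendrocytes also transcribe, with ranks of 4, 1 and 23 for AGA HF replicate 4, AGA HF replicate 6 and SGA HF replicate 2, and of 22, 6 and 11 without it (54.4, 80.2 and 63.9 CPM, median 62.7). The 3 libraries thus shared high fibrillar collagens and a high meningeal sum without NNAT, while their glial and macrophage sums differed. In the same order, pericyte and smooth muscle markers were at ranks 3, 7 and 5, and at 3, 8 and 5 without TAGLN. Tendon and joint markers were at ranks 22, 9 and 12, but at 3, 8 and 4 without DKK3. High sums were thus not particular to the meningeal list. The neuron sums without CAMK2A were low in all 3. The part of tissue composition in the levels of PRG4 and TNMD was not tested.

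The rest of the matrix was less even. Summed over each list, AGA HF replicate 4 was highest for 12 other collagens of fibroblasts (299.96 CPM against a median of 222), for 19 other matrix glycoproteins (451 against 297) and for 17 collagen processing enzymes (622 against 501). SGA HF replicate 2 was at rank 3 for the collagens (279 CPM) and glycoproteins (384 CPM) and rank 8 for the enzymes (523 CPM). AGA HF replicate 6 was at ranks 4, 6 and 10 (277, 357 and 505 CPM). For 9 other leucine-rich proteoglycans AGA HF replicate 4, SGA HF replicate 2 and AGA HF replicate 6 ranked 18, 2 and 8 with BGN (biglycan, 337 CPM), which made up most of that sum, and 2, 5 and 3 without it. COL6A2 (62.0 CPM) was the most abundant of the other collagens, FN1 (fibronectin, 72.1 CPM) of the glycoproteins, and SERPINH1 (the collagen chaperone, 114 CPM) of the enzymes. The single genes closest to COL1A2 in these lists were FBLN1 (rho 0.78), PCOLCE (0.76) and PRELP (0.75).

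The question of the diet comparison is whether HF piglets had more of these transcripts than CON piglets. Littermates shared a diet, so diets were compared over 6 HF and 6 CON litters. PRG4 averaged 1.01 ± 0.987 CPM (SD, n = 6 litters) on HF and 0.163 ± 0.248 on CON, and TNMD 1.67 ± 1.04 and 0.523 ± 0.530. These 2 genes were chosen for this difference, so the values are a description without a test. PRG4 had at least 1 read in 6 of 6 HF litters and 3 of 6 CON litters. Of these, HF litters 5 and 9 had 1 and 2 reads and CON litter 10 had 1, too few to tell from 0. HF litters ranged from 0.0651 to 2.28 CPM for PRG4 and from 0.273 to 3.17 CPM for TNMD. CON litters ranged from 0 to 0.602 and from 0.127 to 1.35 CPM, so litters of both diets overlapped for both genes.

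The 7 matrix genes were tested for diet, and none was called. COL1A2 averaged 25.3 ± 6.36 CPM in HF litters and 20.2 ± 3.65 in CON litters (n = 6 each). DCN averaged 22.2 ± 3.40 and 17.7 ± 3.93, and COL3A1 48.3 ± 10.01 and 42.7 ± 9.29. COL1A1 averaged 8.72 ± 2.24 and 7.65 ± 1.85, and THBS2 9.41 ± 2.27 and 7.87 ± 1.45. OGN (58.4 ± 5.10 and 56.3 ± 9.03) and LUM (20.3 ± 2.70 and 20.8 ± 1.503) were nearly level. The litters of both diets overlapped for all 7. The log2 fold change of HF over CON in edgeR's quasi-likelihood fit of litter sums was 0.33 (SE 0.16) for COL1A2, 0.33 (SE 0.14) for DCN, 0.26 (SE 0.17) for THBS2, 0.19 (SE 0.19) for COL1A1, 0.19 (SE 0.15) for COL3A1, 0.06 (SE 0.10) for OGN and -0.04 (SE 0.09) for LUM. The false discovery rate (FDR) was 0.99986 for each. At the study's FDR threshold of 0.4, 0 of the 7 and 0 of 15474 genes (0%) were called, by edgeR and by DESeq2. At an unadjusted p under 0.05 edgeR had 541 genes (3.5%), of which DCN was one, and 1074 without litter 4 and 940 without litter 7. Of the 7, 6 were higher on HF, with a median log2 fold change of 0.19, where 50.4% of all genes were higher and the median was 0.00. For PRG4 and TNMD the same fit gave 2.77 and 1.82, as a description.

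Without the 3 HF libraries highest in PRG4, the log2 fold change of each of the 7 was lower, and that of LUM was further below 0. With these left out, a choice made on their values that favours lower fold changes, the log2 fold change was 0.09 for COL1A2 (SE 0.16), 0.13 for DCN (SE 0.14), 0.07 for THBS2 (SE 0.21), 0.05 for COL1A1 (SE 0.19), -0.07 for COL3A1 (SE 0.15), -0.04 for OGN (SE 0.11) and -0.11 for LUM (SE 0.10). TNMD was 0.76 (SE 0.59), and PRG4 no longer passed the filter. In AGA littermates alone DCN differed by 0.60 and COL3A1 by 0.44, and in SGA littermates alone by 0.09 and -0.05. In cohort 1 alone DCN differed by 0.58 and in cohort 2 alone by 0.12. None of these was called.

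**Figure D4:**
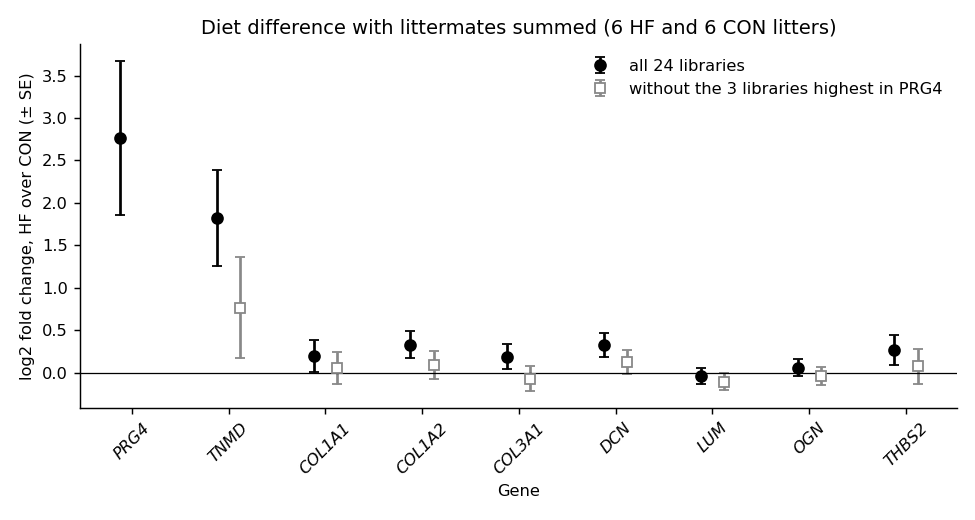
Log2 fold change of HF over CON for each of the 9 genes, from litter sums of 6 HF and 6 CON litters, with SE bars, for all 24 libraries (filled circles) and without the 3 libraries highest in PRG4 (open squares, where PRG4 did not pass the filter). The 7 matrix genes lie between -0.04 and 0.33 with all libraries and between -0.11 and 0.13 without the 3.

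The study modelled piglets rather than litters, with size, diet, their interaction, sex and 5 surrogate variables. The paper says that these variables adjust for unwanted structure, such as differences between cohorts, between pairs and between single samples. In that design, fitted with edgeR, 26 of 16326 genes (0.159%) were called for diet. PRG4 was first by p, with a log2 fold change of 4.91 (SE 0.77, FDR 0.146), and TNMD was at rank 4, with 2.48 (SE 0.47, FDR 0.217). These are the values that chose them. None of the 7 matrix genes was called, and 2 of them, DCN (0.34) and COL1A2 (0.29), had an unadjusted p under 0.05, as did 7.09% of all genes. DESeq2 and limma voom called none of the 7 either. Without the surrogate variables the log2 fold change of PRG4 was 2.68 and that of TNMD 1.80, and 0 genes were called in all by edgeR. The 5 surrogate variables held 68.0% of the residual variance of PRG4, 71.8% of TNMD, 71.2% of COL1A2, 73.0% of OGN and 74.9% of THBS2. They held 58.4% of DCN, 56.1% of COL3A1, 44.3% of COL1A1 and 36.0% of LUM, with a median of 48.5% over all genes tested. Their part in the diet difference was not tested beyond leaving them out.

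Of the other lists, 1 gene was called for diet, CRABP2, of 24 tested in the meningeal list, where 0.159% of all genes were called. CRABP2 was up-regulated in HF piglets by 1.82 (SE 0.43, FDR 0.362) in the design with surrogate variables. Over litter sums it differed by 1.57 (SE 0.57, FDR 0.99986). SLC22A8 differed by 1.29 (SE 0.61) and SLC13A4 by 0.84 (SE 0.45) over litter sums and were not called. Of 24 meningeal genes, 18 were higher on HF (median 0.11), and of the 47 genes tested in the 4 other matrix lists 24 were higher (median 0.00), with none called. Over litter sums 50.4% of all genes were higher on HF. EFEMP1, a fibulin-type matrix glycoprotein singled out after its values were seen, had the smallest p of the listed genes over litters and differed by 0.66 (SE 0.16, FDR 0.99986).

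Of the 7 matrix genes, 0 were called for birth size by edgeR, DESeq2 or limma voom, where edgeR called 78 of 16326 genes (0.478%). At an unadjusted p under 0.05 edgeR had 0 of the 7, and 10.6% of all genes. The log2 fold change of SGA over AGA lay between -0.16 for COL1A2 and 0.05 for DCN. PRG4 and TNMD are given as a description, since PRG4 passed the filter through 3 libraries and both genes were chosen on these samples. PRG4 averaged 0.771 ± 1.55 CPM in 12 AGA and 0.431 ± 0.784 in 12 SGA piglets, and TNMD 1.03 ± 1.32 and 1.18 ± 1.62. The fitted log2 fold change of PRG4 was -3.09 (SE 0.86) with the surrogate variables, -0.60 (SE 1.00) with litter as a block and -0.83 (SE 0.97) without the surrogate variables. That of TNMD was -1.11 (SE 0.55), opposite in direction to its means, and -0.10 (SE 0.61) with the litter block and -0.08 (SE 0.60) without the surrogate variables. In the other lists, 2 genes were called for size. FOXJ1, a regulator of motile cilia, was up-regulated in SGA piglets by 0.52 (SE 0.11, FDR 0.224), and CAMK2A, a kinase of excitatory synapses, by 0.13 (SE 0.03, FDR 0.308).

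The interaction asks whether the diet difference was unlike in SGA and AGA piglets. Of the 7 matrix genes, 0 were called by edgeR, DESeq2 or limma voom, where edgeR called 8 of 16326 genes (0.049%). At an unadjusted p under 0.05 edgeR had 0 of the 7, and 4.01% of all genes. Of the 7, 6 were below 0, between -0.54 for COL3A1 and -0.01 for THBS2, and OGN was at 0.16. With litter as a block 4 of the 7 were below 0, since COL1A2 (0.10) and THBS2 (0.23) turned, as they did without the surrogate variables. Of all genes 50.7% were above 0. PRG4 and TNMD were chosen for their diet difference, so their interaction is a description. PRG4 averaged 0.189 CPM in AGA CON, 1.35 in AGA HF, 0.137 in SGA CON and 0.725 in SGA HF piglets, and TNMD 0.561, 1.501, 0.507 and 1.84 in the same order. The interaction of PRG4 was 5.31 (SE 1.53) with the surrogate variables, 0.06 (SE 0.94) with litter as a block, -0.58 (SE 2.27) without the surrogate variables, -0.12 with cohort and sex in their place and -0.08 by limma voom, so its direction turned with the fit. The interaction of TNMD was 2.42 (SE 1.03) with the surrogate variables, 0.88 (SE 1.29) with litter as a block and 0.46 (SE 1.26) without the surrogate variables.

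Cohorts were compared after the values were seen. In a fit of litter sums with cohort, sex and diet, 1413 of 15474 genes (9.13%) were called, and COL1A1 was the only one of the 7 matrix genes. It was higher in cohort 2 by 0.44 (SE 0.17, FDR 0.300), with 9.58 ± 2.13 CPM in 12 libraries of cohort 2 and 6.87 ± 2.15 in 12 of cohort 1. COL1A2 differed by 0.32 (SE 0.15, FDR 0.425). As a description, PRG4 differed by 1.22 (SE 0.83) and TNMD by -0.24 (SE 0.56). The 3 piglets highest in PRG4 came from both cohorts. With cohort in the fit, the diet difference was 0.32 for COL1A2 and 0.34 for DCN, and 0 of the 7 were called.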

How the data were processed

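RNA from the hippocampus of 24 piglets was sequenced after poly(A) selection with a stranded kit. The authors trimmed reads with Trimmomatic 0.33, aligned them with STAR 2.5.2a and counted them by gene with featureCounts (Subread 1.5.0), on Sscrofa10.2, and deposited whole-number counts without normalization. An entry with no gene identifier (0.613 to 1.62% of each library) was left out. Symbols were matched by identifier (23036 of 38882) to Sscrofa11.1 gene names, and 15993 genes had a symbol. Members and lists were chosen with earlier results of these data known.

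CPM used TMM-scaled library sizes (edgeR 4.0.16, R 4.3.3). Genes with at least 1 CPM in 3 libraries, or 3 litters, were tested with edgeR's quasi-likelihood test and the Benjamini-Hochberg FDR. That test gives no SE. The SE of an edgeR log2 fold change was derived as its absolute value over the square root of the test's F statistic. It is not a measured spread, above all for genes with few reads such as PRG4. The study's design (16326 genes, 7 contrasts adjusted together) had 4 groups, sex and 5 surrogate variables (sva 3.50.0). The paper reports more genes left by the same stated filter, and the cause of the difference was not tested. Diet was also tested on summed littermates (15474 genes, diet and sex). The call was an FDR under 0.4, the threshold of the study's heat map. limma 3.58.1 and DESeq2 1.42.0 were alternatives. Only the edgeR fits of size and of diet over litters were checked on simulated counts. These were drawn without likeness between littermates, and only genes with mean levels above those of PRG4 and TNMD were changed. The check thus does not cover genes with so few reads, nor the other fits.

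The study itself used limma voom. All 9 genes were named. Of each other list, the most abundant gene and up to 4 called genes were named, with the 5 genes with a symbol, outside the 9, closest by Spearman's rho to PRG4, TNMD and COL1A1. Other genes named were chosen after their values were seen. Depth limits single libraries: 3 reads were 0.323 to 0.499 CPM at library sizes before TMM scaling. Such floors cover counting error only. Littermates come from the pair labels, and their deviations correlated by 0.154 on average over 12 pairs (0.031 over 24 other pairs).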

Additional observations from a re-analysis of the deposited data

Results flagged for a closer look

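In 7 of the 36 groups of 6 libraries examined (9 genes in 4 groups), the highest or lowest library stood apart from its group by more than the critical value of Dixon's test. Chance flags about 1 group in 20 where values are near normal, which few reads are not, and 4 of the 7 concern PRG4 and TNMD, genes chosen on these values, so the number is read as a description. PRG4 stood apart in SGA CON replicate 6 (0.821 CPM, 5 reads, where the other 5 were at 0) and in SGA HF replicate 2 (2.77 CPM, the next 0.593). TNMD stood apart in SGA CON replicate 6 (2.46 CPM, the next 0.303) and in AGA CON replicate 2 (1.80 CPM, the next 0.420). DCN was high in AGA HF replicate 6 (39.1 CPM, the next 22.9) and OGN in AGA CON replicate 2 (79.8 CPM, the next 57.5). COL1A1 was low in SGA HF replicate 3 (3.09 CPM, the next 8.41). AGA HF replicates 4 and 6 did not meet this limit for PRG4 or TNMD, since 2 high libraries of 6 hide each other. SGA CON replicate 6 was also the highest in LUM, and AGA CON replicate 2 was the highest in THBS2 and the lowest in summed hippocampal neuron markers (5910 CPM). What set these libraries apart was not tested.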

How the results depend on the processing

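None of the 7 matrix genes was called for diet, size or the interaction under any alternative run. PRG4, given as a description, passed the threshold for size when that contrast was adjusted alone (1 of the 9, FDR 0.206). Leaving out each litter in turn gave 0 called in all 12 fits, and log2 fold changes of 0.06 to 0.32 for COL1A1, 0.20 to 0.41 for COL1A2, 0.10 to 0.26 for COL3A1, 0.22 to 0.39 for DCN, -0.095 to 0.015 for LUM, 0.01 to 0.14 for OGN and 0.15 to 0.40 for THBS2. As descriptions, PRG4 ranged from 2.46 to 3.73 (9 of 12 fits, since it missed the filter in 3) and TNMD from 1.61 to 2.26. In the study's design PRG4 and TNMD lost their diet call without surrogate variables (2.68 and 1.80) and with cohort and sex in their place (2.69 and 1.79), and PRG4 also with limma voom (2.53). Without the 3 libraries highest in PRG4, TNMD lost it too (1.499) and PRG4 could not be fitted. As a description, TNMD passed the threshold over litters when no filter was used (1.83), where 21 of all genes did so, against 0 with the filter.

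Signs turned as follows, in genes that were not called. With the replicate block of litter, size became 0.0083 for LUM and 0.046 for THBS2, and the interaction 0.098 for COL1A2 and 0.23 for THBS2. The block changed no other direction and no call of a member. Without surrogate variables, size became 0.019 for LUM and 0.012 for THBS2, diet 0.067 for OGN, and the interaction -0.58 for PRG4, 0.029 for COL1A2 and 0.24 for THBS2. With cohort and sex, size became 0.018 for LUM and 0.011 for THBS2, diet 0.072 for OGN, and the interaction -0.12 for PRG4, 0.12 for COL1A2 and 0.23 for THBS2. With limma voom the interaction of PRG4 became -0.076. With no filter the size difference of OGN became 0.00025. Over litters, COL3A1 became -0.048 in SGA littermates, and LUM 0.14 in AGA littermates and 0.055 in cohort 1. Without the 3 libraries, size became 0.031 for OGN, the interaction 0.046 for THBS2, diet over litters -0.072 for COL3A1 and -0.037 for OGN, and rho of PRG4 and LUM -0.027. The cause of these turns was not tested.

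Among all genes, 26 were called for diet, against 0 without surrogate variables, 16 with cohort and sex, 88 with DESeq2, 10 with limma voom, 6 adjusted alone, 12 with no filter and 8 without the 3 libraries. For size there were 78, against 13 without surrogate variables, 210 with DESeq2, 1200 adjusted alone, 47 with no filter, 420 with the litter block and 21 without the 3 libraries. For the interaction there were 8, against 0 without surrogate variables, 17 with DESeq2, 16 with its size factors, 45 with the litter block, 1 with limma voom, 3 with no filter and 0 adjusted alone. Over litters there were 0, against 21 with no filter, 3 in cohort 2 alone and 1 with cohort and sex. Littermates share a diet, so diet has no fit with a litter block, and litter sums took its place. PRG4 had 107 reads in all, and a level in 1 library near 0.4 CPM could not be told from 0. The 3 libraries were chosen after their values were seen.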
